A study of Mus musculus with 12 samples.

Results

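Interferon response genes are the genes that a cell switches on when an interferon binds its surface receptor. The 41 genes described here were taken by gene symbol from the table of all samples and comprise RNA and DNA sensors, transcription factors, modifiers of signalling, antiviral effectors and a chemokine. All 41 were among the 46095 genes of the table, and all 41 were among the 14666 genes that passed the filter on low counts.

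Read counts came from hepatocellular carcinomas of the mouse liver, of which 7 libraries were labelled Pck1-null (KO) and 5 were labelled WT. Tumours of both genotypes had been induced with diethylnitrosamine, a liver carcinogen that damages DNA, and the design set the null tumours against the wild-type ones. KO replicate 7 was placed in KO by its genotype label, although its title begins KP and the other KO titles begin KO or ko. The labels give no strain, age, sex, batch or allele structure, and do not say whether each library came from a separate mouse, and p-values therefore cover the spread among the libraries at hand, which may be technical. Pck1, the cytosolic phosphoenolpyruvate carboxykinase of glucose synthesis, had 111 to 1167 CPM in KO against 1063 to 5822 CPM in WT. CPM is the count scaled to library size with TMM factors. The liver marker Alb was abundant throughout, with 31860 to 112980 CPM in KO and 31612 to 140780 CPM in WT. Total counts lay between 43071365 and 46747125 in KO replicates 4, 5 and 6 and WT replicates 2 and 5, called the deeper libraries, and between 17462102 and 23663506 in the other 7, called the shallower libraries.

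Type I interferons signal through a receptor whose kinases activate STAT proteins. STAT2 joins IRF9 in a complex that binds the interferon-stimulated response element (ISRE) in promoters of antiviral genes. Interferon gamma, a product of T cells and NK cells, acts mainly through STAT dimers at a different element (GAS) and through IRF1, and induces GTPases of the GBP and IRG families. In the liver, hepatocytes, Kupffer cells and endothelial cells can all respond to interferon.

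Libraries of the same genotype were not equally distant from each other. By the median absolute log2 ratio, WT replicates 2 and 5 were the closest pair of all 31 same-genotype pairs. That ratio was 0.183 over all genes tested and 0.153 over the 41 interferon response genes. The next closest pair, KO replicates 4 and 7, had 0.296 over all genes and 0.297 over the 41. The remaining pairs ranged from 0.356 to 0.602 over all genes. The pair was no duplicate of 1 library, since its counts differed by a chi-square of 182.9 per degree of freedom and Alb stood at 31612 CPM in WT replicate 2 and 95171 CPM in WT replicate 5. By that chi-square other pairs were lower, such as KO replicates 4 and 7 at 81.4 and WT replicates 3 and 5 at 129.9. It grows with the number of counts, however, and each of those pairs holds a shallower library. Pairs of deeper KO libraries had 387.3 (replicates 4 and 5), 477 (4 and 6) and 844.8 (5 and 6). Whether WT replicates 2 and 5 came from 1 mouse or 1 tumour is not stated. Results that rest on these libraries are given with and without them.

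**Figure D1:**
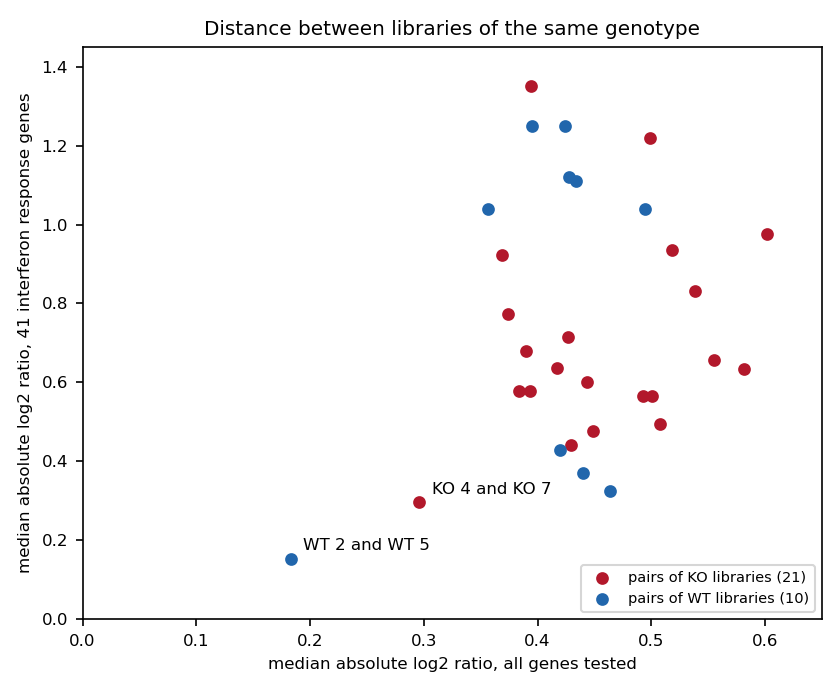
Each point is a pair of libraries of the same genotype, with the median absolute log2 ratio over all genes tested on the x axis and over the 41 interferon response genes on the y axis. WT replicates 2 and 5 lie lowest on both axes, at 0.183 and 0.153, and KO replicates 4 and 7 are next on both, at 0.296 and 0.297.

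Most of the 41 genes had lower levels in KO, and the highest levels lay in WT replicates 2 and 5. Of the 41 genes, 36 had a negative log2 fold change, against 46.3% of all genes tested, and the median was −0.74, against 0.03 over all genes. In edgeR (quasi-likelihood test, unadjusted p under 0.05), 26 of 41 were lower and 0 higher in KO, where 7.44% of all genes were lower and 7.25% higher. An exact permutation test (two-sided, on mean log2 CPM, over every regrouping of the libraries) put 16 of the 41 lower and 0 higher at an unadjusted p under 0.05, against 7.08% and 6.64% of all genes. After adjustment over all genes, edgeR called 0 of the 41 at 0.05 and 0% of all genes. DESeq2 called 9 of the 41 lower and 0 higher, against 1.65% and 1.68% of all genes. Limma-voom with sample weights called 29 lower and 0 higher, against 8.18% and 6.4%. Without weights it called 0 of the 41 and 5 of all genes tested. Groups without overlap occurred in 0 of the 41 genes, whereas in 0.58% of all genes every KO library was below every WT library and in 0.634% above.

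This difference was smaller with that pair of WT libraries left out. In 26 of the 41 genes WT replicates 2 and 5 were the highest pair among the 12 libraries, which was so for 6.54% of all genes tested. Without both of them, 33 of 41 fold changes were still negative, but the median was −0.24 and 3 genes were lower at an unadjusted p under 0.05, against 3.8% of all genes. Those 3 were Ifih1, Dhx58 and Oasl1, with log2 fold changes of −0.38, −0.83 and −1.335. In that fit Ifit3 had −0.79, Isg15 −0.60, Irf7 −0.32, Ifit1 −0.24 and Rsad2 −0.23. Usp18 was higher there, in a fit where 4.08% of all genes were. With WT replicates 2 and 5 summed to 1 library, 13 genes were lower and 0 higher at that threshold, against 4.97% and 5.29% of all genes, and the median was −0.62. Leaving out WT replicate 2 alone or WT replicate 5 alone gave 14 lower genes each, with medians of −0.599 and −0.61. The share of all genes was not taken for these fits. The mean log2 CPM over the 41 genes was 5.37 in WT replicate 2 and 5.31 in WT replicate 5. It lay between 3.04 and 4.42 in KO and between 3.96 and 4.21 in the other WT libraries, so the remaining groups overlapped.

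**Figure D2:**
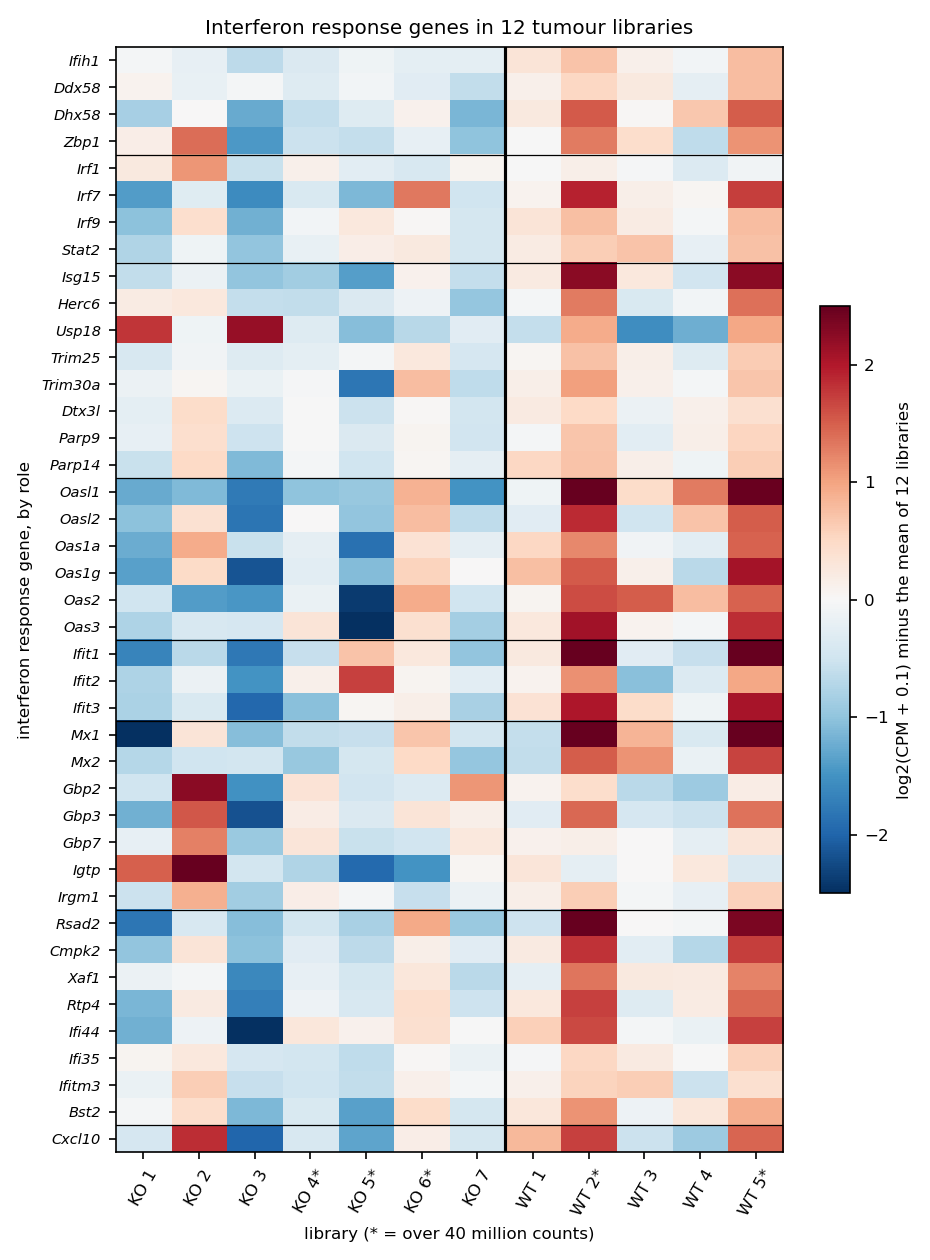
Rows are the 41 interferon response genes grouped by role, columns are the 7 KO and then the 5 WT libraries, and colour is log2(CPM + 0.1) minus the mean of the 12 libraries for that gene. Asterisks mark the deeper libraries. WT replicates 2 and 5 are the highest pair in 26 of 41 rows, and KO replicate 2 is highest in 9.

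Promoter sequence was available for 32 of the 41 genes in the RefSeq table for GRCm38.p6, the same assembly as mm10, as windows of 250 bases before to 50 after each start. The ISRE core, written as GAAA, any 2 bases (NN) and GAAA, and searched on both strands, was present in 19 of these 32 genes (59.4%), against 3.99% of all 27025 genes with a window. The GAS core, TTCNNNGAA, was present in 8 of 32 (25.0%), against 9.55% of all genes. A match describes these letters only and is not evidence of binding. Stretches of 60 bases follow for genes whose levels peaked in WT replicates 2 and 5 (Isg15, Ifit1, Ifit3, Rsad2, Oas1a, Oas1g) and for genes that peaked in KO replicate 2 (Gbp2, Gbp7, Igtp, Irgm1), each on the strand of its gene, with ISRE letters in capitals. On the opposite strand the core reads TTTC, NN, TTTC.
Isg15 at chr4:156200856-156200915 (minus strand): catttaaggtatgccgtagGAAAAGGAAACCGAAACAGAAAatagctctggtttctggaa
Ifit1 at chr19:34640769-34640828 (plus strand): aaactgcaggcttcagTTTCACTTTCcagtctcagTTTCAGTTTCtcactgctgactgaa
Ifit3 at chr19:34583365-34583424 (plus strand): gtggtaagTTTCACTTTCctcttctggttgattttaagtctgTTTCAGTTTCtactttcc
Rsad2 at chr12:26456538-26456597 (minus strand): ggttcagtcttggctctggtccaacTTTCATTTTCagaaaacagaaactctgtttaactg
Oas1a at chr5:120907525-120907584 (minus strand): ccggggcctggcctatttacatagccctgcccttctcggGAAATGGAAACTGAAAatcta
Oas1g at chr5:120887613-120887672 (minus strand): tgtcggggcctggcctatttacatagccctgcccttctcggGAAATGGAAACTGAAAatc
Gbp2 at chr3:142620579-142620638 (plus strand): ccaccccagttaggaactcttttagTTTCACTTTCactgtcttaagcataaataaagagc
Gbp7 at chr3:142530258-142530317 (plus strand): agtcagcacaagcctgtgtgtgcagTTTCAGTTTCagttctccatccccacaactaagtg
Igtp at chr11:58199497-58199556 (plus strand): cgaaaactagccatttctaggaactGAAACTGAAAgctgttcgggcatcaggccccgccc
Irgm1 at chr11:48871420-48871479 (minus strand): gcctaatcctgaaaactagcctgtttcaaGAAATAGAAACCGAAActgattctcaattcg

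Isg15 held 3 overlapping ISRE matches, Oas1a, Oas1g and Irgm1 held 2 overlapping ones, and Ifit1 and Ifit3 held 2 apart from each other. Of the genes highest in WT replicates 2 and 5 that had a window, 10 of 20 held the ISRE core and 3 of 20 the GAS core. Of those highest in KO replicate 2, 7 of 8 held the ISRE core and 4 of 8 (Irf1, Gbp7, Igtp and Ifitm3) the GAS core. These groups were formed after the values were seen and were not tested.

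The sensors recognise foreign or misplaced nucleic acid, and Ifih1 and Ddx58 signal for interferon production. Dhx58, which encodes the RNA sensor LGP2, had 5.64, 9.02 and 14.6 CPM as the lowest, median and highest KO level, against 16.2, 39.6, 13.9, 21.8 and 39.3 CPM in WT replicates 1 to 5. Only KO replicate 6 reached into the WT range, and the log2 fold change was −1.44 ± 0.32 (SE; edgeR adjusted p = 0.178; exact permutation p = 0.00379). Ifih1, the sensor MDA5 of long double-stranded RNA, had 23.6, 31.1 and 35.9 CPM in KO in the same order, against 46.0, 60.9, 40.1, 35.4 and 63.1 CPM in WT. Here 6 KO libraries were under the lowest WT value, and the log2 fold change was −0.66 ± 0.16 (edgeR adjusted p = 0.186; exact permutation p = 0.00253). Ddx58, the sensor RIG-I of RNA ends, had 20.5, 27.5 and 33.5 CPM in KO, against 34.1, 45.0, 37.0, 26.6 and 53.4 CPM in WT. For Ddx58 3 KO libraries were under the lowest WT value, and its log2 fold change was −0.51 ± 0.17 (edgeR adjusted p = 0.238; exact permutation p = 0.0215). Zbp1, a sensor of Z-form nucleic acid that can trigger cell death, had a log2 fold change of −0.66 ± 0.48, and its highest level, 34.7 CPM, was in KO replicate 2.

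Among the transcription factors, Irf7, which amplifies type I interferon production and is itself interferon-induced, had 21.7, 45.3 and 160 CPM as the lowest, median and highest KO level. It had 68.9, 244, 71.3, 67.1 and 214 CPM in WT replicates 1 to 5. KO replicate 6 was the only KO library above any WT library, and the log2 fold change was −1.28 ± 0.53 (edgeR adjusted p = 0.301; exact permutation p = 0.0379). Stat2 had 19.6, 34.0 and 46.0 CPM in KO, against 45.0, 59.8, 64.0, 33.4 and 64.4 CPM in WT. The low WT value was that of replicate 4, and the log2 fold change was −0.69 ± 0.23 (edgeR adjusted p = 0.239; exact permutation p = 0.0290). Irf9 had 13.2, 29.1 and 40.7 CPM in KO, against 38.2, 51.1, 35.0, 29.3 and 51.7 CPM in WT. With 4 KO libraries under the lowest WT value, its log2 fold change was −0.61 ± 0.28 (edgeR adjusted p = 0.335; exact permutation p = 0.0556). Without WT replicates 2 and 5, Stat2 had −0.52 (edgeR unadjusted p = 0.102) and Irf9 −0.34 (edgeR unadjusted p = 0.338). Irf1, which interferon gamma induces through GAS elements, ran differently, at 95.4 CPM in KO replicate 2, 29.96 to 52.2 CPM in the other KO libraries and 34.8 to 49.2 CPM in WT (log2 fold change 0.20 ± 0.26).

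Of the 8 modifiers of signalling, 7 had a negative fold change, against 46.3% of all genes. In edgeR 4 (Isg15, Herc6, Trim25 and Parp14) were lower at an unadjusted p under 0.05, against 7.44% of all genes. In the fit lacking WT replicates 2 and 5, none of the 8 was lower at that threshold, where 3.8% of all genes were. Isg15, a ubiquitin-like protein that is attached to other proteins after interferon, had 7.51, 12.9 and 21.4 CPM as the lowest, median and highest KO level, against 22.98, 94.3, 23.7, 14.1 and 94.2 CPM in WT. WT replicate 4 lay within the KO range and replicates 2 and 5 were far above it, and the log2 fold change was −1.91 ± 0.47 (edgeR adjusted p = 0.190; exact permutation p = 0.00631). Herc6, the main mouse ligase for Isg15, had 5.74, 8.80 and 13.6 CPM in KO, against 10.98, 28.2, 8.64, 10.8 and 29.6 CPM in WT. Outside WT replicates 2 and 5 its groups overlapped, and the log2 fold change was −0.90 ± 0.34 (edgeR adjusted p = 0.274; exact permutation p = 0.0745). Parp14, a mono-ADP-ribosyltransferase, had 19.8, 36.6 and 60.6 CPM in KO, against 61.5, 70.4, 47.6, 39.5 and 65.2 CPM in WT. KO replicate 2 was its highest KO library, and the log2 fold change was −0.60 ± 0.24 (edgeR adjusted p = 0.292; exact permutation p = 0.0328). The ubiquitin ligases Trim25 and Dtx3l, the Dtx3l partner Parp9 and Trim30a had log2 fold changes from −0.57 to −0.36. Dtx3l and Parp9 lie head to head on chromosome 16 and overlap, so their reads cannot be fully told apart without strand.

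Usp18, the protease that removes Isg15 and also dampens the type I receptor, was the exception among the modifiers, and it is described in full because of its values. It had 117, 31.4, 152, 27.1, 16.2, 20.9 and 27.8 CPM in KO replicates 1 to 7, against 22.2, 63.9, 11.5, 14.4 and 65.8 CPM in WT replicates 1 to 5. KO replicates 1 and 3 lay above every WT library, while those same libraries had the lowest levels of Irf7 (24.6 and 21.7 CPM). WT replicates 2 and 5 were the highest WT libraries for Usp18 as for most of the 41 genes. The log2 fold change was 0.65 ± 0.67 over all libraries (edgeR adjusted p = 0.663), 2.36 in the shallower and −1.60 in the deeper ones.

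The OAS family makes or resembles enzymes that make 2′-5′ oligoadenylate, the signal for RNase L to cut RNA. All 6 members had a negative log2 fold change, against 46.3% of all genes, with a median of −1.47. In edgeR 5 were lower at an unadjusted p under 0.05, against 7.44% of all genes. In the fit of all KO libraries against WT replicates 1, 3 and 4, only Oasl1 of the 6 was lower at that threshold, where 3.8% of all genes were. Among the shallower libraries alone Oasl1, Oas2 and Oas3 were lower, where 5.93% of all genes were. Oasl1, which restrains Irf7 translation in mice, had 6.98, 11.1 and 44.1 CPM as the lowest, median and highest KO level, against 22.4, 141, 33.2, 59.2 and 134 CPM in WT. KO replicate 6 was the only KO library inside the WT range. Its level averaged 5.18-fold lower in KO (log2 −2.37 ± 0.55, edgeR adjusted p = 0.180; exact permutation p = 0.00379). Oas2 had 0.355, 1.58 and 4.44 CPM in KO, against 2.40, 7.32, 6.74, 3.96 and 6.54 CPM in WT. It was also high in WT replicate 3, and its log2 fold change was −1.70 ± 0.53 (edgeR adjusted p = 0.218; exact permutation p = 0.0101). Oas3 had 0.709, 3.37 and 5.97 CPM in KO, against 5.44, 19.7, 4.78, 4.34 and 16.4 CPM in WT (log2 −1.55 ± 0.52, edgeR adjusted p = 0.238; exact permutation p = 0.0265). Oasl2 had −1.20 ± 0.50, Oas1g −1.38 ± 0.54 and Oas1a −0.89 ± 0.45. Reads of Oas1a and Oas1g are hard to separate, since 57.6% and 45.7% of their 50-base transcript stretches also occur in transcripts of other genes, chiefly each other.

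**Figure D3:**
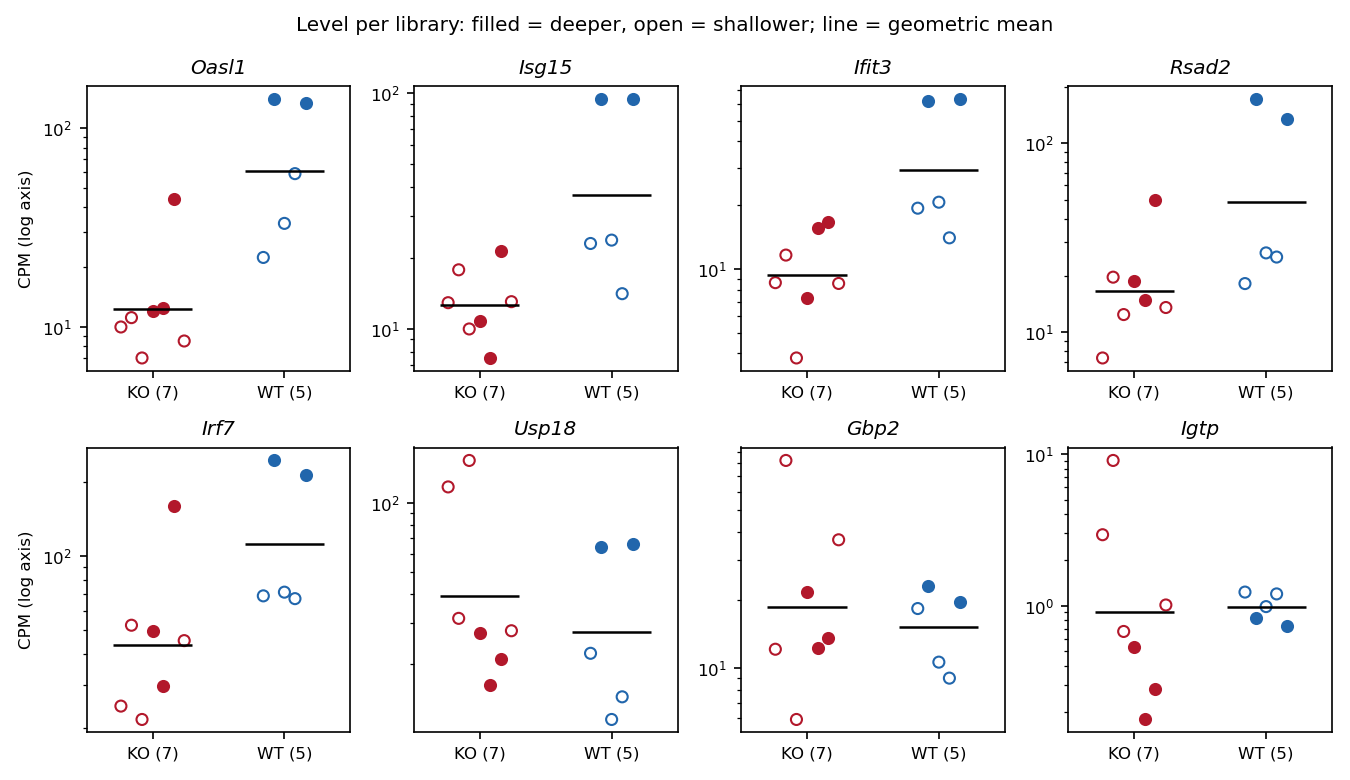
CPM per library on log axes for 8 of the genes, with KO left of WT, deeper libraries filled, shallower libraries open, and a line at the geometric mean of each group. Oasl1, Isg15, Ifit3, Rsad2 and Irf7 are highest in the deeper WT libraries, Usp18 in KO replicates 1 and 3, and Gbp2 and Igtp in KO replicate 2.

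IFIT proteins bind foreign RNA ends and block its translation. Ifit1 had 2.94, 6.46 and 16.95 CPM as the lowest, median and highest KO level, against 12.2, 66.2, 8.50, 6.92 and 64.4 CPM in WT. Its KO maximum, in replicate 5, was above the 3 shallower WT libraries, and the log2 fold change was −2.03 ± 0.64 (edgeR adjusted p = 0.222; exact permutation p = 0.0530). Ifit3 had 3.81, 8.62 and 16.6 CPM in KO, against 19.4, 61.7, 20.7, 14.0 and 63.4 CPM in WT. WT replicate 4 was the only WT library within the KO range, and the log2 fold change was −1.80 ± 0.44 (edgeR adjusted p = 0.190; exact permutation p = 0.00505). Transcripts of Ifit3 share 51.2% of their 50-base stretches with other genes, in the main Ifit3b. Ifit2 had 3.998, 10.3 and 37.6 CPM in KO, against 12.2, 25.2, 5.48, 9.02 and 22.4 CPM in WT. Its highest level was that of KO replicate 5, and the log2 fold change was −0.17 ± 0.52 (edgeR adjusted p = 0.901; exact permutation p = 0.630).

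Of the 7 interferon-induced GTPases, 2 (Mx1 and Mx2) were lower at an unadjusted p under 0.05 in edgeR, against 7.44% of all genes. None was lower at that threshold in the fit without WT replicates 2 and 5, where 3.8% of all genes were. A positive fold change was seen for 3 GBP and IRG genes (Gbp2, Gbp7 and Igtp). Mx2, an antiviral GTPase of the dynamin superfamily, had 1.58, 2.21 and 4.48 CPM as the lowest, median and highest KO level, against 2.03, 9.24, 6.96, 2.81 and 10.4 CPM in WT (log2 −1.43 ± 0.42, edgeR adjusted p = 0.211; exact permutation p = 0.0215). Mx1, of the same family, had 0.126, 1.40 and 3.54 CPM in KO, against 1.39, 12.5, 3.93, 1.62 and 13.7 CPM in WT (log2 −2.001 ± 0.707, edgeR adjusted p = 0.250; exact permutation p = 0.0581). Both were highest in WT replicates 2 and 5, and without that pair Mx2 had −0.74 and Mx1 −0.46. Gbp2, a guanylate-binding protein that attacks vacuoles of pathogens, had 5.93, 13.5 and 82.3 CPM in KO, against 18.3, 23.1, 10.6, 9.02 and 19.5 CPM in WT. Its maximum was in KO replicate 2, and the log2 fold change was 0.71 ± 0.57 (edgeR adjusted p = 0.577; exact permutation p = 0.641).

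KO replicate 2 had the highest level of several GBP and IRG genes and of Irf1, an observation made after the values were seen. That library was the highest of all 12 for 9 of the 41 genes, namely Zbp1, Irf1, Gbp2, Gbp3, Gbp7, Igtp, Irgm1, Ifitm3 and Cxcl10, and it was the highest for 7.44% of all genes tested. Its lead was small for Ifitm3, at 588 CPM against 583 CPM in WT replicate 3. The same held against WT replicate 2 for Zbp1 (34.7 against 32.4 CPM) and Gbp3 (32.8 against 30.3 CPM). Igtp, an immunity-related GTPase, reached 9.05 CPM in KO replicate 2 and 2.93 CPM in KO replicate 1, with 0.177 to 1.01 CPM in the other KO libraries and 0.729 to 1.23 CPM in WT. Gbp7 had 42.0 CPM there, 9.06 to 21.5 CPM in the other KO libraries and 14.8 to 21.6 CPM in WT. Irgm1 had 68.5 CPM there, with 20.04 to 41.7 CPM in the other KO libraries and 32.2 to 56.9 CPM in WT. Cxcl10, the chemokine that draws T cells through CXCR3, had 29.7 CPM in KO replicate 2, 2.02 to 9.31 CPM in the other KO libraries, and 14.6, 27.1, 5.62, 4.34 and 22.8 CPM in WT. Its log2 fold change over all libraries was −0.74 ± 0.64 (edgeR adjusted p = 0.594; exact permutation p = 0.234). Ifng itself had 15 counts in KO replicate 2 and 0 to 7 counts in each of the other 11 libraries. Markers of T and NK cells summed to 34.7 CPM in KO replicate 2, 5.10 to 27.1 CPM in the other KO libraries and 9.56 to 18.7 CPM in WT. Their part in the pattern was not tested.

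The other effectors all had negative fold changes, against 46.3% of all genes. In edgeR 7 of 8 were lower at an unadjusted p under 0.05, against 7.44% of all genes. In the fit of all KO libraries against WT replicates 1, 3 and 4, no effector of this list was lower at that threshold, where 3.8% of all genes were. Among the shallower libraries alone Rsad2 was lower, where 5.93% of all genes were. Rsad2, or viperin, which makes a chain-terminating nucleotide, had 7.32, 14.9 and 50.3 CPM as the lowest, median and highest KO level, against 18.1, 172, 26.3, 25.0 and 134 CPM in WT. KO replicate 6 was above the 3 shallower WT libraries, and the log2 fold change was −1.94 ± 0.62 (edgeR adjusted p = 0.222; exact permutation p = 0.0480). Its neighbour Cmpk2 on chromosome 12, a nucleotide kinase that feeds viperin, had −1.25 ± 0.44. Xaf1, a partner of an apoptosis inhibitor, had 2.55, 6.93 and 9.68 CPM in KO, against 6.82, 20.4, 9.41, 9.30 and 19.0 CPM in WT (log2 −1.02 ± 0.34, edgeR adjusted p = 0.236; exact permutation p = 0.0253). Rtp4, a receptor chaperone, had 4.72, 11.9 and 20.95 CPM in KO, against 18.9, 51.2, 12.5, 18.0 and 42.7 CPM in WT (log2 −1.19 ± 0.41, edgeR adjusted p = 0.248; exact permutation p = 0.0455). In each of these 3 genes the KO range ended well below WT replicates 2 and 5 and met the other WT libraries. Without that pair Rsad2 had −0.23, Xaf1 −0.40 and Rtp4 −0.37. The virus tether Bst2 (−0.78 ± 0.33), Ifi44 (−1.19 ± 0.53), Ifi35 (−0.44 ± 0.18) and the membrane protein Ifitm3 (−0.39 ± 0.26) made up the rest.

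**Figure D4:**
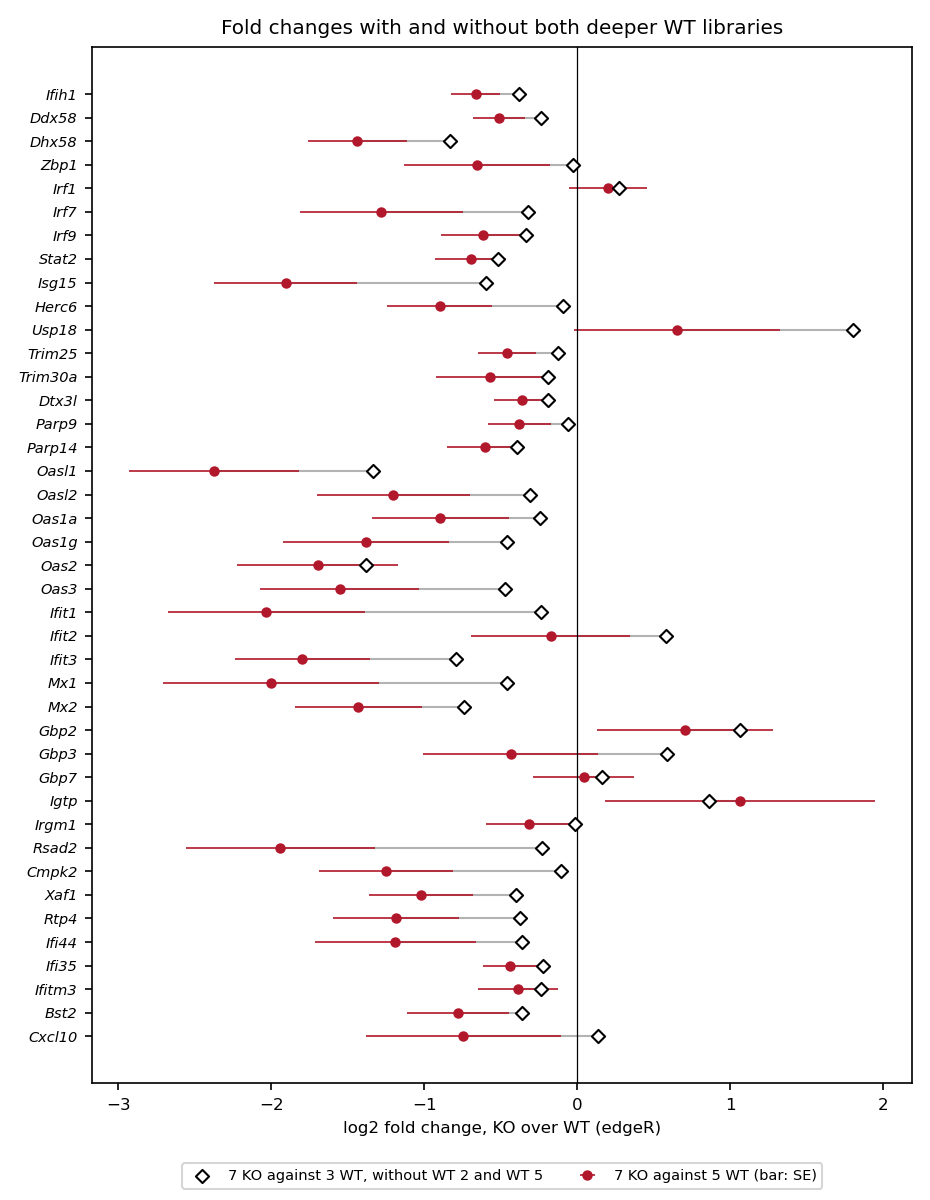
The x axis is the edgeR log2 fold change of KO over WT for each of the 41 genes, with filled circles and SE bars for all 12 libraries and open diamonds for the fit without WT replicates 2 and 5. The median moved to −0.24 without them, against −0.74 with all libraries, and Ifit2, Gbp3 and Cxcl10 crossed 0.

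The difference was larger among the deeper libraries, where both high WT libraries stand. In the 3 KO and 2 WT deeper libraries, 41 of 41 fold changes were negative, the median was −1.43, and 30 genes were lower and 0 higher at an unadjusted p under 0.05, against 7.32% and 6.02% of all genes. The WT side of that fit is WT replicates 2 and 5 alone, whose median absolute log2 ratio over the 41 genes was 0.153. If they came from 1 mouse or tumour, its p-values rest on too small a spread among WT tumours. Among the 4 KO and 3 WT shallower libraries, 32 of 41 were negative, the median was −0.35, and 9 genes were lower (Dhx58, Irf7, Stat2, Oasl1, Oas2, Oas3, Ifit1, Ifit3 and Rsad2), against 5.93% of all genes. Usp18 was the only gene of the 41 that was higher there, where 5.18% of all genes were. A test of the difference between the depth classes in edgeR called 0 of 41 genes after adjustment (smallest adjusted p = 0.514), and 10 of 41 had an unadjusted p under 0.05, against 9.55% of all genes. Depth and the 2 high WT libraries cannot be told apart within WT. Xist, which silences an X chromosome in female cells, was over 10 CPM in KO replicates 1, 2, 3, 5 and 6 and WT replicate 4. With the Xist class as a covariate 36 of 41 were negative, the median was −0.69, and 8 were lower and 0 higher at an unadjusted p under 0.05 in KO. The lower ones were Ifih1, Ddx58, Dhx58, Isg15, Oasl1, Oas2, Ifit3 and Mx2, where 6.18% of all genes were lower and 5.35% higher.

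Upstream of these genes, few reads were counted for the interferons themselves. None of the 15 interferon genes looked up passed the filter, 12 had no count in any library, and Ifnb1 and Ifnk had at most 1 count in a library. A count of 0 allows up to 0.0536 to 0.211 CPM, depending on the library, for counting error only. A 0 in this table need not mean that a gene was silent, since H2-D1, a class I gene of most cell types, had 0 counts in 11 of the 12 libraries. Of 14 receptor and JAK-STAT genes, 0 were lower and 3 were higher in KO at an unadjusted p under 0.05 in edgeR, against 7.44% and 7.25% of all genes. These were the kinase gene Jak2 (0.59 ± 0.21), the interferon gamma receptor chain Ifngr1 (0.66 ± 0.24) and the feedback inhibitor Socs3 (0.44 ± 0.19), with edgeR adjusted p of 0.250, 0.264 and 0.310. Of 14 genes for sensing ahead of interferon, 2 were lower and 0 higher at that threshold, against the same shares of all genes. Mavs, the adaptor that relays signals of Ifih1 and Ddx58, had 39.4, 44.1 and 80.9 CPM as the lowest, median and highest KO level, against 77.3, 94.2, 87.1, 81.1 and 96.7 CPM in WT. For Mavs WT replicates 2 and 5 did not stand apart, and only KO replicate 6 reached into the WT range (−0.75 ± 0.19, edgeR adjusted p = 0.190; exact permutation p = 0.00379). Irf3, the factor that Mavs activates, had −0.62 ± 0.21 (edgeR adjusted p = 0.244), and Mb21d1, which encodes cGAS, had 0.69 ± 0.42 (edgeR adjusted p = 0.460).

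Interferon gamma also drives antigen presentation genes. Of 13 tested genes of MHC class I and the immunoproteasome, 0 had an unadjusted p under 0.05 in either direction in edgeR, with a median log2 fold change of −0.08. The gene that did not pass the filter was H2-D1, with 1 count in KO replicate 7 and none elsewhere, while B2m had 17138 to 83284 counts in KO and 20147 to 77387 counts in WT. How reads of the similar class I genes were assigned is not known. Counts were also low for Tap1, Tap2, Psmb8 and Psmb9, at most 83, 84, 111 and 51 in a library. Levels in this list, that of Tap1 included, may therefore not reflect expression. The smallest p values were those of Tap1 (1.24 ± 0.66), Psme2 (−0.36 ± 0.20) and H2-Q4 (0.40 ± 0.28), with edgeR adjusted p of 0.398, 0.416 and 0.520. Tap1, a peptide transporter subunit, was highest in KO replicate 2 at 4.47 CPM, with 0.194 to 1.46 CPM in the other KO libraries and 0.382 to 1.12 CPM in WT. Among 53 tested interferon-stimulated genes outside the 41, 15 were lower and 1 higher at an unadjusted p under 0.05, against 7.44% and 7.25% of all genes, with a median of −0.40. These counts include WT replicates 2 and 5 and were not taken without them. Ifit3b had −1.91 ± 0.52, the apolipoprotein L gene Apol9b −1.84 ± 0.51 and the ubiquitin ligase gene Trim34a −0.70 ± 0.20, with edgeR adjusted p of 0.197, 0.201 and 0.209. Apol9b had 15.03 to 98.0 CPM in KO, against 263 and 242 CPM in WT replicates 2 and 5 and 44.6 to 113 CPM in the other WT libraries.

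Markers of cell types that respond to interferon were set beside these levels, since in bulk tissue fewer cells of a type and less RNA per cell cannot be told apart. The 10 Kupffer cell and macrophage markers summed to 407 to 861 CPM in 6 KO libraries and 2734 CPM in KO replicate 6, and WT libraries had sums of 754 to 1697 CPM. Clec4f, the Kupffer cell lectin, had 1.02 to 112 CPM in KO and 50.2 to 265 CPM in WT, with the KO maximum in replicate 6 and the WT maximum in replicate 2. It was the only marker of that list lower at an unadjusted p under 0.05 in edgeR, 5 of the 10 had a positive fold change, and the median log2 fold change was 0.02. These fold changes include KO replicate 6, where Marco had 294 CPM, against 0.323 to 4.61 CPM in the other KO libraries and 0.429 to 22.5 CPM in WT. Timd4 had 51.1 CPM there, 0.0877 to 2.59 CPM in the other KO libraries and 1.96 to 10.8 CPM in WT. The mean log2 CPM over the list was 3.53 to 5.34 in 6 KO libraries, 7.75 in KO replicate 6 and 4.98 to 6.59 in WT. The 8 endothelial markers summed to 172 to 682 CPM in KO, again highest in replicate 6, and to 415 to 654 CPM in WT, highest in replicate 2, and 4 of the 8 were lower in KO at an unadjusted p under 0.05 in edgeR, against 7.44% of all genes. KO replicate 6 was also the highest KO library for Irf7, Oasl1 and Rsad2. The 6 pan-leukocyte markers summed to 60.4 to 217 CPM in KO and 70.5 to 133 CPM in WT, and Ptprc had 13.2 to 43.7 CPM in KO and 16.9 to 32.2 CPM in WT. Of the 8 dendritic cell markers 5 were tested, the list summed to 4.62 to 41.7 CPM in KO and 9.27 to 24.1 CPM in WT, and Siglech of plasmacytoid dendritic cells had no count in WT replicate 3 and at most 1.12 CPM elsewhere. The 10 neutrophil markers summed to 34.3 to 1623 CPM in KO and 30.2 to 55.5 CPM in WT, with 8 of the 10 higher in KO at that threshold, against 7.25% of all genes, and 1 of the 10 in the exact permutation test. KO replicates 3, 4 and 6 had 1623, 254 and 406 CPM, and the other 4 KO libraries, at 34.3 to 44.3 CPM, lay within the WT range. Of 10 hepatocyte markers, 8 had a negative fold change, against 46.3% of all genes, with a median log2 fold change of −0.12. In edgeR 1 was lower and 0 higher at an unadjusted p under 0.05, against 7.44% and 7.25% of all genes. Among them Cps1 varied widely, with 25.7 to 2612 CPM in KO and 507 to 2833 CPM in WT. The part of these cell types in the interferon response levels was not tested.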

How the data were processed

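The table holds raw read counts per gene symbol as deposited by the authors, aligned with HISAT2 to mm10 per the submitters' processing notes. How reads were counted, on which strand and with which annotation is not given in the sources used here. The genotype label gave the groups, and replicates were numbered in accession order. Libraries held 17462102 to 46747125 counts. The filterByExpr filter (minimum count 10, minimum total 15) left 14666 genes with 99.9% of counts. KO was set against WT in edgeR 4.0.16 (R 4.3.3) (TMM, robust glmQLFit and glmQLFTest), and p was adjusted by Benjamini-Hochberg over all genes. Standard errors were derived from the F statistic and the log2 fold change. Exact permutation tests used log2 CPM with a prior count of 2 over every regrouping of the libraries, with a smallest possible p of 0.00126, and after adjustment over all genes 0 passed 0.05. Alternatives used DESeq2 1.42.0, limma 3.58.1, other scalings and filters, covariates and left-out libraries. The fits were also run on simulated counts with known changes, drawn independently for each library. That check does not cover libraries that vary together and cannot decide between the numbers of genes called by each program. Shared 50-base stretches came from GENCODE M21 transcripts. The genes and lists were chosen with earlier results of these data known. Levels (lowest, median and highest of the KO libraries, and every WT library) are given for the 3 genes with the smallest p in each role and for Irf7, Irf9, Stat2, Isg15 and Cxcl10, and for others where the text says so. Older symbols served for genes renamed since.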

Additional observations from a re-analysis of the deposited data

Results flagged for a closer look

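Within groups, 84 sets of levels (41 genes and their mean, in KO and in WT) were searched for a library far from the rest, and 3 had one, where chance gives about 1 in 20. Oasl1 was high in KO replicate 6, where the gap to the next KO library was 0.687 of the KO range on the log2(CPM + 0.1) scale. Mx2 was high in the same library, with a gap of 0.642 of the range. Oas3 was low in KO replicate 5, with a gap of 0.570 of the range.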

How the results depend on the processing

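No paired analysis was possible because the labels give the genotypes no shared replicate numbers. Of 14666 genes edgeR called 0, and it called 1 with upper-quartile scaling, 1 with no filter, 1 with at least 1 CPM in 5 libraries, 2 with the title number range and 3 with the depth class as covariate, 2 in the deeper libraries and 1 without both deeper WT libraries. DESeq2 called 489, limma-voom with weights 2138 and without weights 5, and leaving out 1 library gave 0 to 65, the most without KO replicate 6. Of the 41 genes edgeR called 0, DESeq2 9, limma-voom 29 with weights and 0 without, and leaving out 1 library 0 to 1 (Oasl1, without KO replicate 6). The 26 genes lower at an unadjusted p under 0.05 became 8 with the Xist class as covariate (median log2 fold change −0.69, against −0.74), 9 in the shallower libraries (−0.35), 13 with WT replicates 2 and 5 summed (−0.62), 3 without both (−0.24), and 14 to 31 with 1 library left out. The 0 higher genes became 1 in the shallower libraries and 1 without both deeper WT libraries, and stayed at 0 with any 1 library left out. The median log2 fold change was −1.35 with weighted and −0.92 with unweighted limma-voom. It was −1.43 in the deeper libraries, and −1.003 to −0.599 with 1 library left out. The difference of the mean level was −0.85 over all libraries, −1.499 in the deeper ones, and −1.015 to −0.662 with 1 left out. The share of promoters with the motif was 65.6% with the shorter core GAAANNGAA, which 9.76% of all genes hold.

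Some fold changes turned sign. In the shallower libraries Zbp1 had 0.21, Gbp3 0.64, Irgm1 0.0175, Cxcl10 0.42 and Psme2 0.0381. In the deeper ones Irf1 had −0.21, Usp18 −1.60, Gbp2 −0.43, Gbp7 −0.43 and Igtp −1.21. Without both deeper WT libraries Ifit2 had 0.58, Gbp3 0.59 and Cxcl10 0.13, and with WT replicates 2 and 5 summed Ifit2 had 0.0681. Limma-voom gave Usp18 −0.0734, Gbp7 −0.16 and Igtp −0.00805 with weights, and Gbp7 −0.18 and Igtp −0.41 without. With the title number range as covariate Gbp7 had −0.0603 and Igtp −0.17. With 1 library left out Irf1 ran from −0.0479 to 0.29, Gbp7 from −0.28 to 0.16 and Igtp from −0.0981 to 1.27, each lowest without KO replicate 2. Ifit2 ran from −0.71 without KO replicate 5 to 0.10 without WT replicate 2. The cause was not tested. The summed and left-out pairs of libraries were chosen after seeing the data.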
